A study of Mus musculus with 6 samples.

Results

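The genes described here encode RNA-binding proteins of the families that choose splice sites in brain: the SR proteins (Srsf), Tra2, Hnrnp, Rbfox, Nova, Celf, Mbnl, Elavl and Qk. They were chosen by symbol, as known genes of these families with at least 60 counts summed over all 6 libraries, and Srsf3, Hnrnpa1 and Hnrnpa2b1 were not part of the set. The names matched 49 of the 24459 genes in the table. Of these 49, 48 reached the count minimum and 1, Mbnl3, did not, with a total of 1 count. The member with the fewest counts was Srsf12, with a total of 259. These 48 genes had 416 isoforms among the 75457 of the isoform table. All 48 genes and 324 of the 416 isoforms had enough counts to be tested.

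The tissue was perihematomal brain, the tissue around the clot, from mice labelled WT, on day 5 after intracerebral hemorrhage (ICH), a bleed into the brain. Mice of one group had received TEPP-46, a small molecule that activates pyruvate kinase M2, for 5 days after the bleed, and mice of the other group had received vehicle. There were 3 libraries of each group, made from total RNA with a nanopore cDNA-PCR kit that reads cDNA molecules as long reads. All 6 libraries are from ICH tissue, so no library shows the brain without a bleed, and neither age, sex, strain nor the way the bleed was made is stated in the labels. The comparison asks how transcript levels in this tissue differed between TEPP-46 and vehicle.

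Libraries are named here by their columns, C1, C2 and C4 for vehicle and T1, T2 and T3 for TEPP-46. They held between 5286426 and 6025064 counts each, and the 48 genes took between 0.79% and 0.845% of them. Whether each sample was its own animal is not in the labels; the tests see only the sample-to-sample spread, which may be technical. C4 stood apart in its markers of oligodendrocytes, the myelin-forming cells. The summed level of 8 such genes, all detected, was lowest in C4, at 5373 CPM (counts scaled to the library's total), and ran from 13198 to 15379 CPM across the remaining 5. The summed level of 4 choroid plexus markers was 4.21 CPM in C2 and 15.9 CPM in C4, against 1798 to 4087 CPM in the other 4. The 10 markers of microglia and macrophages summed to between 746 and 6757 CPM in vehicle and between 1478 and 4167 CPM in TEPP-46. The 8 neuronal markers summed to between 5430 and 7459 CPM in vehicle and between 5498 and 7148 CPM in TEPP-46. In such bulk tissue, fewer cells of a type and less RNA per cell cannot be told apart.

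Splicing factors bind short motifs in a transcript before it is spliced and help or hinder the use of nearby splice sites. SR proteins mostly promote the inclusion of exons they bind, and many hnRNP proteins oppose it. Rbfox, Nova, Celf, Mbnl, Elavl and Qk proteins adjust the exons of neuronal, muscle and glial transcripts according to where they bind. Many of these genes also control their own output: they can include a so-called poison exon with a stop codon, which sends the transcript to nonsense-mediated decay (NMD), the pathway that destroys messages with an early stop.

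None of the 48 genes differed between TEPP-46 and vehicle after Benjamini-Hochberg adjustment of edgeR's quasi-likelihood test over 14441 genes, where 0% of all genes were called. The smallest adjusted p among the 48 was 0.657. At an unadjusted p under 0.05, 1 of the 48 genes was higher in TEPP-46, Celf6, where 1.88% of all genes were. At the same threshold 3 were lower, Srsf11, Srsf12 and Hnrnpu, against 4.05% of all genes. The CPM values of the groups did not overlap for 3 genes that were higher in TEPP-46, Celf6, Hnrnph2 and Rbfox2, against 5.67% of all genes. They did not overlap for 5 that were lower, Srsf6, Srsf11, Srsf12, Hnrnpu and Elavl3, against 5.76% of all genes. The median log2 fold change (TEPP-46 over vehicle) was 0.06 over the 48 genes and 0.01 over all genes tested. With DESeq2 in place of edgeR, 88 genes were called over all genes and none of these 48. At an unadjusted p under 0.05 by DESeq2, 1 of the 48 was higher in TEPP-46 and 4 were lower. The share of all genes at that threshold was not computed for DESeq2, so these counts have no background beside them.

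**Figure D1:**
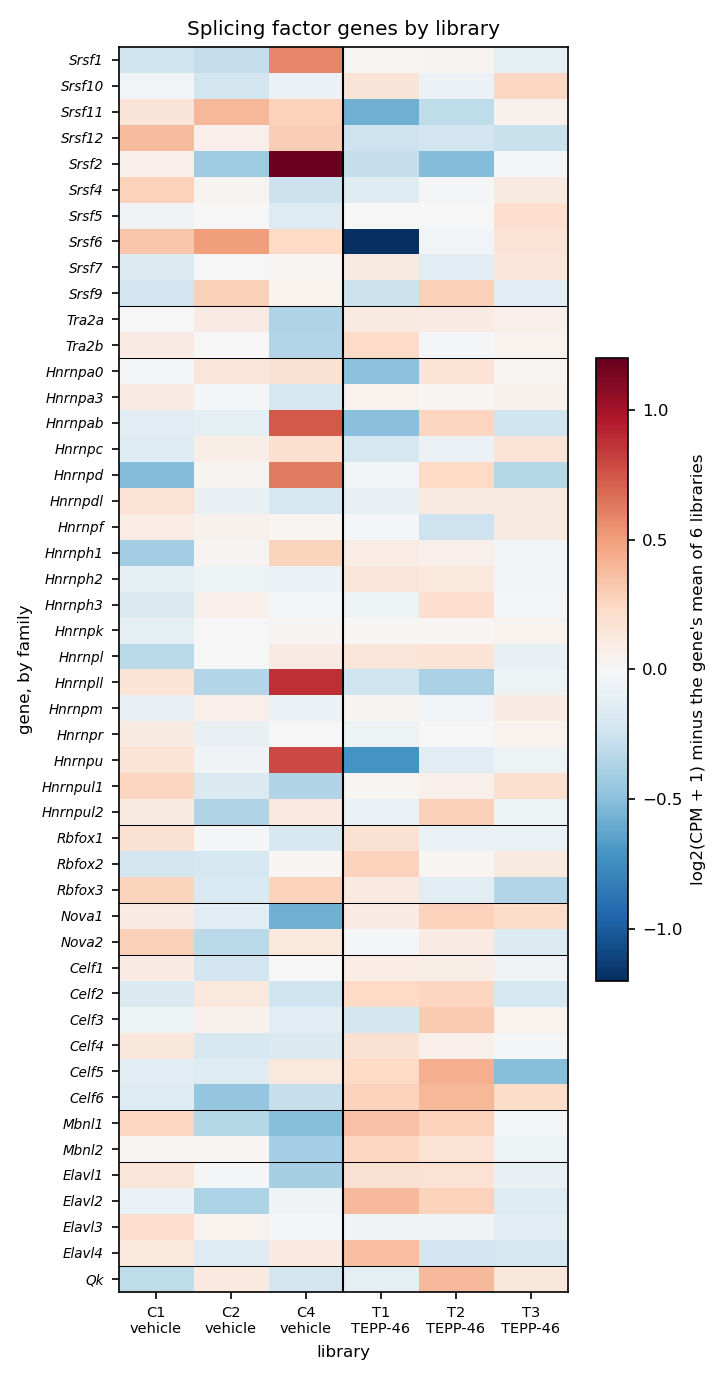
Level of each of the 48 genes in each library, as log2(CPM + 1) minus the gene's mean over the 6 libraries, with genes in rows by family and libraries in columns. Srsf2, Hnrnpll and Hnrnpu were highest in C4, and Srsf6 was lowest in T1.

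The SR proteins are the classical exon activators. Srsf11 (ENSMUSG00000055436, GRCm38 chr3:158010473-158036639, minus strand), an SR-related protein that interacts with the splice-site factor U2AF, had 71.2, 84.2 and 77.6 CPM in C1, C2 and C4. It had 42.3, 51.4 and 66 CPM in T1, T2 and T3, so every TEPP-46 library was below every vehicle library. The log2 fold change was -0.56 (SE 0.179), with a 95% interval of -0.96 to -0.16 and an adjusted p of 0.657. The unadjusted p was 0.012, and it stayed under 0.05 whichever single library was left out.

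Srsf12 (chr4:33208991-33233340, plus strand), a small SR protein found mainly in brain and testis, had 10.3, 8.07 and 9.65 CPM in C1, C2 and C4. It had 6.31, 6.4 and 6.22 CPM in T1, T2 and T3, so the groups did not overlap. Its log2 fold change was -0.57 (SE 0.228), with an adjusted p of 0.781. These values rest on 152 counts in vehicle and 107 in TEPP-46, and with DESeq2 the unadjusted p was 0.0836. The unadjusted p of Srsf12 stayed under 0.05 without C2 (0.0313) and lay between 0.0624 and 0.0915 when any of the other 5 libraries was left out.

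Srsf6, a regulator of exon choice in tau transcripts, had 27.9, 31.4 and 26.1 CPM in vehicle and 8.96, 21.3 and 24.7 CPM in TEPP-46. The groups did not overlap, but T1 was far below the other libraries. The log2 fold change of Srsf6 was -0.65 (SE 0.325, adjusted p 0.884) and -0.32 without T1, while without T3 it was -0.92 with an unadjusted p of 0.029. Srsf2, also called SC35, a marker of nuclear speckles, had 29.4, 20.7 and 65.5 CPM in vehicle (C1, C2, C4) and 22.9, 19.4 and 27.9 CPM in TEPP-46. C4 was the highest library, and the rest lay between 19.4 and 29.4 CPM. The log2 fold change of Srsf2 was -0.73 (SE 0.388, adjusted p 0.897) with C4 and -0.11 without it, and without C2 it was -1.03 with an unadjusted p of 0.00976. Srsf1, the founding SR protein, was likewise highest in C4, with 45.8 CPM against 24.6 to 30.8 CPM elsewhere. On the log2 scale the difference was -0.11 (SE 0.248, adjusted p 0.997) with C4 and 0.24 without it. The oligodendrocyte markers were lowest in the same library, and their part in these differences was not tested.

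Srsf5 and Srsf10 had the highest CPM of the family. Srsf5, induced early in many growth responses, had 318 to 353 CPM in vehicle and 353 to 407 CPM in TEPP-46, with a log2 fold change of 0.12 (SE 0.113, adjusted p 0.983). Srsf10, which acts as a repressor when it loses its phosphates, had 111 to 127 CPM in vehicle and 123 to 155 CPM in TEPP-46. Its log2 fold change was 0.21 (SE 0.127, adjusted p 0.936), and the groups overlapped. The other members, Srsf4, Srsf7 and Srsf9, had log2 fold changes of -0.06, 0.08 and -0.08. Of the 10 Srsf genes, 3 had a positive log2 fold change and 7 a negative one, where 51.1% of all genes had a positive one. The median of the 10 was -0.10 against 0.01 over all genes.

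Tra2a and Tra2b are the mammalian relatives of the fly sex-determination factor transformer-2 and activate exons rich in GAA repeats. Tra2a had 62.2, 66.5 and 48.2 CPM in vehicle and 67.1, 66.9 and 64.8 CPM in TEPP-46, a log2 fold change of 0.15 (SE 0.153, adjusted p 0.985). Tra2b had 50, 46.5 and 36.3 CPM in vehicle and 54.9, 46.1 and 47.9 CPM in TEPP-46, a log2 fold change of 0.15 (SE 0.164, adjusted p 0.985). C4 was the lowest library for both, and without C4 each log2 fold change was 0.03.

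**Figure D2:**
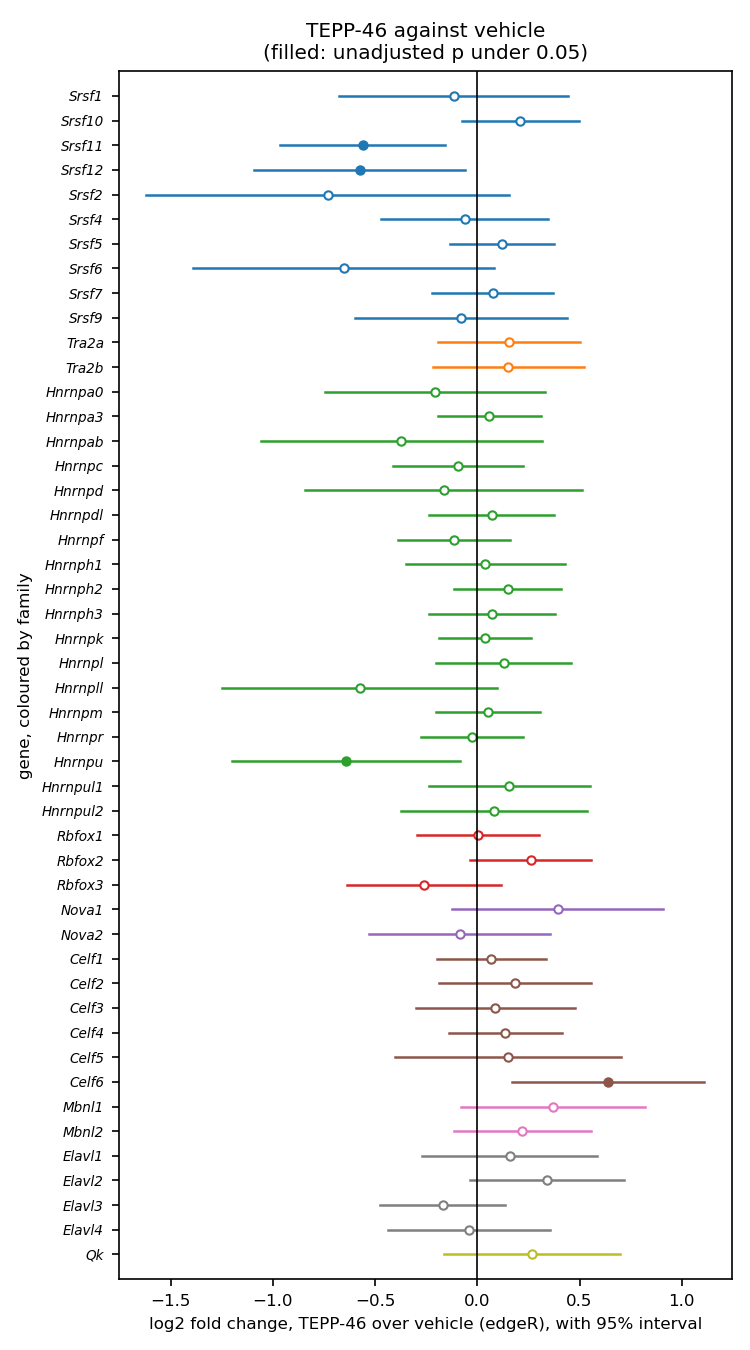
Log2 fold change of each of the 48 genes, TEPP-46 over vehicle, with its 95% interval from edgeR's quasi-likelihood fit; filled points have an unadjusted p under 0.05. The intervals of 44 genes include 0, and those of Srsf11, Srsf12, Hnrnpu and Celf6 do not.

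The hnRNP proteins coat nascent transcripts and include repressors, RNA packagers and scaffold proteins. Hnrnpu (chr1:178321108-178337797, minus strand), a chromatin- and RNA-binding scaffold also known as SAF-A, had 161, 139 and 248 CPM in C1, C2 and C4. It had 87, 130 and 138 CPM in T1, T2 and T3, so the groups did not overlap, but C2 and T3 lay next to each other. The log2 fold change was -0.64 (SE 0.245), with an adjusted p of 0.766. Without C4, the highest library, it was -0.35 with an unadjusted p of 0.106, and without T1, the lowest library, it was -0.46 with an unadjusted p of 0.0919.

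Hnrnpk, a poly(C)-binding protein, lay between 1644 and 1821 CPM in vehicle and between 1790 and 1832 CPM in TEPP-46. The fold change on the log2 scale was 0.04 (SE 0.1), with a 95% interval of -0.19 to 0.26. Hnrnpc, which binds uridine tracts and keeps cryptic exons silent, lay between 397 and 505 CPM in vehicle and between 380 and 494 CPM in TEPP-46. Its log2 fold change was -0.09 (SE 0.141), with a 95% interval of -0.41 to 0.22. Hnrnpll, a relative of Hnrnpl known for controlling the exons of Ptprc in lymphocytes, had 25.3, 17.4 and 42 CPM in vehicle and 18.9, 16.9 and 21.5 CPM in TEPP-46. On the log2 scale the difference was -0.57 (SE 0.298, adjusted p 0.897) and -0.17 without C4, while without C2 it was -0.82 with an unadjusted p of 0.00907. Hnrnpab, with 35.8 CPM in C4 against 14.6 to 25.4 CPM elsewhere, and Hnrnpd, with 35.6 CPM in C4 against 15.5 to 27 CPM elsewhere, were also highest in C4. Hnrnph2, which binds runs of G, had 113, 116 and 116 CPM in vehicle and 134, 132 and 118 CPM in TEPP-46, with a log2 fold change of 0.15 (SE 0.116, adjusted p 0.973). Of the 18 Hnrnp genes, 10 had a positive log2 fold change and 8 a negative one, from -0.64 to 0.16, with a median of 0.04. Several Hnrnp and Srsf genes have processed pseudogenes in the mouse genome, and how their reads were assigned is not given in the sources used here.

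Rbfox proteins bind the motif GCATG and promote neuronal and muscle exons. Rbfox3 (chr11:118489762-118911597, minus strand) encodes NeuN, the standard marker of mature neurons. Vehicle libraries held 243, 177 and 245 CPM and TEPP-46 libraries 219, 184 and 157 CPM, and the groups overlapped. Its log2 fold change was -0.26 (SE 0.167, adjusted p 0.942), and without C2 it was -0.39 with an unadjusted p of 0.0323. Rbfox1 had 511, 444 and 391 CPM in vehicle and 509, 425 and 424 CPM in TEPP-46. Its log2 fold change of 0.00 (SE 0.132) took a negative sign, -0.01 with DESeq2, under other scalings. Rbfox2 had 87.8, 88.8 and 104 CPM in vehicle and 124, 105 and 110 CPM in TEPP-46, with no overlap, a log2 fold change of 0.26 (SE 0.131) and an adjusted p of 0.884. Without C4 the log2 fold change of Rbfox2 was 0.35 with an unadjusted p of 0.0281.

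Nova proteins bind YCAY clusters and regulate exons of synaptic proteins. Nova1 had 14.8, 12.5 and 8.89 CPM in vehicle and 14.8, 16.9 and 16.2 CPM in TEPP-46, a log2 fold change of 0.39 (SE 0.229, adjusted p 0.929), which was 0.22 without C4 and 0.56 without C1. Nova2 had 33.7, 21.8 and 30.3 CPM in vehicle and 27.2, 29.5 and 24.5 CPM in TEPP-46, a log2 fold change of -0.09 (SE 0.196, adjusted p 0.997).

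Celf proteins bind GU-rich sequence and act both on splicing in the nucleus and on message stability in the cytoplasm. Celf6 (chr9:59577917-59607292, plus strand), a brain-enriched member, had 9.36, 7.37 and 8.51 CPM in C1, C2 and C4. It had 12.9, 14.2 and 12.4 CPM in T1, T2 and T3, so every TEPP-46 library was above every vehicle library. The log2 fold change was 0.64 (SE 0.209), with a 95% interval of 0.17 to 1.11 and an adjusted p of 0.657. The value rests on 137 counts in vehicle and 224 in TEPP-46, and it lay between 0.56 and 0.72 when single libraries were left out. Celf4, a regulator of neuronal excitability, had 524 to 657 CPM in vehicle and 594 to 680 CPM in TEPP-46, with a log2 fold change of 0.14 (SE 0.122, adjusted p 0.981). Celf1, a broadly expressed regulator of message decay, had 274 to 344 CPM in vehicle and 311 to 341 CPM in TEPP-46, with a log2 fold change of 0.07 (SE 0.119, adjusted p 0.997). All 6 Celf genes had a positive log2 fold change, from 0.07 to 0.64, and 1 of the 6, Celf6, had an unadjusted p under 0.05. Over all genes tested, 51.1% had a positive log2 fold change. Celf1 took the opposite sign, -0.01, without C2.

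Mbnl proteins are the muscleblind regulators that are sequestered by repeat RNA in myotonic dystrophy. Mbnl1 had 140, 93.1 and 82.7 CPM in vehicle and 151, 143 and 117 CPM in TEPP-46, a log2 fold change of 0.37 (SE 0.199, adjusted p 0.901). Mbnl2, the main form in brain, had 472, 471 and 350 CPM in vehicle and 551, 525 and 445 CPM in TEPP-46, a log2 fold change of 0.22 (SE 0.148, adjusted p 0.95). C4 was the lowest library for both, and without it the log2 fold changes were 0.22 for Mbnl1 and 0.09 for Mbnl2. The choice of library moved Mbnl1 the other way too: without C1, the highest vehicle library, it was 0.62 with an unadjusted p of 0.00509, and without T3 Mbnl2 was 0.31.

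Elavl proteins bind AU- and U-rich sequence, with Elavl1 (HuR) in most cells and Elavl2, Elavl3 and Elavl4 in neurons. Elavl2 had 110, 89.3 and 113 CPM in vehicle and 152, 141 and 104 CPM in TEPP-46, a log2 fold change of 0.34 (SE 0.168, adjusted p 0.882), which was 0.49 without T3 with an unadjusted p of 0.0133. Elavl4 had 156, 128 and 155 CPM in vehicle and 184, 122 and 123 CPM in TEPP-46, a log2 fold change of -0.04 (SE 0.176, adjusted p 0.997). Elavl3 had 56.7, 50.7 and 48.8 CPM in vehicle and 47.8, 47.7 and 44.7 CPM in TEPP-46, with no overlap and a log2 fold change of -0.17 (SE 0.136, adjusted p 0.973). Qk encodes quaking, which guides myelin and astrocyte transcripts. Qk had 33, 44.6 and 35.2 CPM in vehicle and 37.8, 53.9 and 45.2 CPM in TEPP-46, a log2 fold change of 0.27 (SE 0.191, adjusted p 0.965).

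The isoform table allowed the transcripts of these genes to be followed one by one. In the GENCODE vM21 annotation, 261 of the 416 isoforms were protein coding and 38, in 22 genes, were annotated as NMD targets. The remaining 117, in 29 genes, were new isoforms named by the authors, and they held 35.9% of the members' isoform counts. Counts of isoforms of a gene were not independent. Nova2-201 and Nova2-202, whose exons are identical in the annotation, had identical counts in all 6 libraries, and 6 isoforms of Hnrnpl had 148 to 163 counts each in C1. Whether reads were counted more than once or divided cannot be told apart here.

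None of the 324 tested isoforms passed adjustment over the 33854 isoforms tested, where 0% were called by edgeR, and the smallest adjusted p among them was 0.42. DESeq2 called 160 isoforms over all genes and none of these. At an unadjusted p under 0.05, 9 were higher in TEPP-46, where 1.88% of all isoforms were, and 14 were lower, where 3.9% of all isoforms were. The CPM values of the groups did not overlap for 27 of the 324 that were higher in TEPP-46 and for 18 that were lower. Of all 33854 isoforms, 1941 were higher without overlap and 1755 were lower. In the test of isoform usage, which asks whether an isoform moved apart from the rest of its gene, 2 members had a Simes p under 0.05, Elavl3 (0.0135) and Hnrnph2 (0.0413). Over all 7639 genes with more than 1 tested isoform, 0.641% had such a p. No member passed adjustment of the usage test, where 0.0131% of all genes did.

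**Figure D3:**
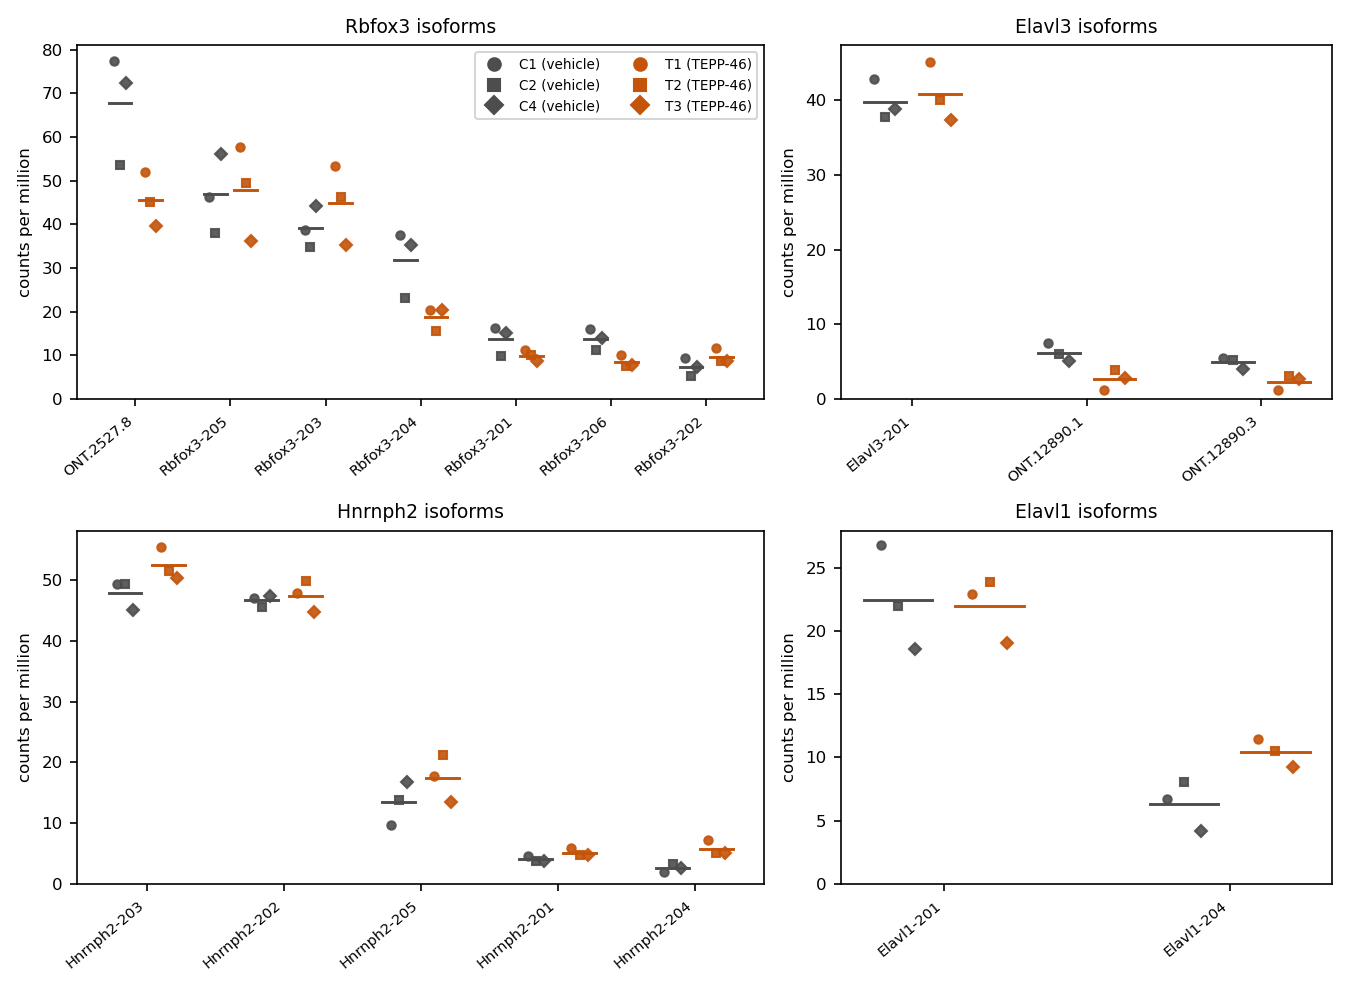
Level of each tested isoform of Rbfox3, Elavl3, Hnrnph2 and Elavl1 in each library, in CPM on a linear axis from 0; points are libraries and bars are group means. Rbfox3-204 and Rbfox3-206 were lower in every TEPP-46 library than in any vehicle library, while Rbfox3-205 and Rbfox3-203 overlapped between groups.

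Rbfox3 had 7 tested isoforms, which differ at their ends and in internal exons. Rbfox3-204, whose last exon is 39 bases long in the annotation, was counted 200, 132 and 186 times in C1, C2 and C4. In T1, T2 and T3 it was counted 123, 87 and 108 times, with a log2 fold change of -0.79 (SE 0.201), the smallest unadjusted p among the members' isoforms (0.002) and an adjusted p of 0.42. Without C2 its adjusted p was 0.0376, and the other 5 libraries left out in turn gave none under 0.05. Rbfox3-206, which ends in a different last exon, had 85, 64 and 74 counts in vehicle and 60, 43 and 41 in TEPP-46, a log2 fold change of -0.72 (SE 0.212, adjusted p 0.557). The new isoform ONT.2527.8 had 413, 306 and 382 counts in vehicle and 313, 254 and 210 in TEPP-46, a log2 fold change of -0.60 (SE 0.163, adjusted p 0.489). Rbfox3-201, with the same last exon start as Rbfox3-206, had a log2 fold change of -0.49 (SE 0.224), and its groups overlapped. The share of ONT.2527.8 in the gene's counts was 30.6% ± 1.15 (SD, n = 3) in vehicle and 24.5% ± 0.704 in TEPP-46.

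Rbfox3-205 and Rbfox3-203, whose last exons are 1480 and 1478 bases long and reach farthest downstream, stood differently. Rbfox3-205 had 247, 217 and 297 counts in vehicle and 348, 278 and 192 in TEPP-46, a log2 fold change of 0.00 (SE 0.191). Rbfox3-203 had 206, 198 and 234 counts in vehicle and 322, 260 and 187 in TEPP-46, a log2 fold change of 0.17 (SE 0.173, adjusted p 0.999). The share of Rbfox3-203 was 17.9% ± 1.9 (SD, n = 3) in vehicle and 24% ± 1.43 in TEPP-46, without overlap. In the usage test the Simes p of Rbfox3 was 0.0959, above 0.05. Rbfox3-202, which ends near the end of Rbfox3-204, had a share of 3.28% ± 0.493 in vehicle and 5.19% ± 0.4 in TEPP-46, so the short-ended isoforms did not all move one way.

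Elavl3 showed the smallest usage p of the set. Its main isoform, Elavl3-201, had 229, 215 and 205 counts in vehicle and 272, 225 and 198 in TEPP-46. The new isoform ONT.12890.1 had 40, 34 and 27 counts in vehicle and 7, 22 and 15 in TEPP-46, a log2 fold change of -1.26 (SE 0.376, adjusted p 0.573). The new isoform ONT.12890.3 had 29, 30 and 21 counts in vehicle and 7, 17 and 14 in TEPP-46, a log2 fold change of -1.14 (SE 0.364, adjusted p 0.624). T1 was lowest for both, and without T1 the log2 fold change of ONT.12890.1 was -0.89.

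For Hnrnph2, a minor isoform was higher in every TEPP-46 library. Hnrnph2-204, a transcript of 3 exons with the longest last exon of the gene, 3841 bases, had 11, 19 and 14 counts in vehicle and 44, 29 and 27 in TEPP-46. Its share was 2.33% ± 0.525 (SD, n = 3) in vehicle and 4.55% ± 0.799 in TEPP-46, and its log2 fold change was 1.09 (SE 0.306, adjusted p 0.529). Elavl1-204, a form of HuR with its own first exon and a last exon of 1582 bases against 4543 bases in Elavl1-201, had 36, 46 and 22 counts in vehicle and 69, 59 and 49 in TEPP-46. Both forms have the same coding length of 978 bases. The share of Elavl1-204 was 21.8% ± 4.52 (SD, n = 3) in vehicle and 32.2% ± 1.44 in TEPP-46. Its log2 fold change was 0.68 (SE 0.261, adjusted p 0.779), while Elavl1-201 had 98 to 143 counts in vehicle and 101 to 138 in TEPP-46. In the usage test the Simes p of Elavl1 was 0.126, above 0.05. Without C4, where Elavl1-204 was lowest, its log2 fold change was 0.45 with an unadjusted p of 0.0758, and the unadjusted p was also above 0.05 without T1 (0.0679) and without T2 (0.0599). Elavl1 as a whole had 33.5, 30 and 22.7 CPM in vehicle and 34.4, 34.3 and 28.3 CPM in TEPP-46, a log2 fold change of 0.16 (SE 0.189, adjusted p 0.989).

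The most abundant isoform of each gene described above in full was also compared. Among those with an unadjusted p above 0.05, the lowest log2 fold change was that of the new isoform ONT.8340.2 of Srsf12, -0.42 (SE 0.239), and the highest that of Celf6-204, 0.65 (SE 0.347). Hnrnpk-202 had -0.01, Celf4-202 had 0.00, Srsf5-201 had 0.01 and Tra2b-204 had 0.16. The remaining isoforms at an unadjusted p under 0.05 had the sign of their gene. Hnrnpu-201 had 376, 343 and 620 counts in vehicle and 238, 321 and 314 in TEPP-46, a log2 fold change of -0.70 (SE 0.258, adjusted p 0.779). The new isoform ONT.714.4 of Hnrnpu had a log2 fold change of -0.69. Srsf11-204 and Srsf11-202, the main coding forms of Srsf11, had log2 fold changes of -0.50 and -0.52, and ONT.8299.8 of the same gene had -0.92. Hnrnpll-201 had a log2 fold change of -0.75, with 100 counts in C4 against 39 to 57 elsewhere. Nova1-201 had 46, 44 and 32 counts in vehicle and 60, 67 and 56 in TEPP-46, a log2 fold change of 0.50. Rbfox2-209 had a log2 fold change of 0.46, and ONT.8866.3 of Elavl2 had 0.54. ONT.8609.7 of Srsf10 and ONT.2728.13 of Srsf5 had 0.57 and 0.73. Of the isoforms named in this paragraph with an unadjusted p under 0.05, ONT.8299.8 kept it whichever single library was left out. The isoforms of Rbfox3, Elavl3, Hnrnph2 and Elavl1 described above are not part of that comparison. The others in this paragraph each rose above 0.05 without at least 1 library, and Hnrnpll-201 and Hnrnpu-201 had log2 fold changes of -0.30 and -0.36 without C4.

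Poison exons were next examined in the members that hold annotated NMD isoforms. Those of 6 genes are shown because they carry the early stop in isoforms with counts here, each as the stretch of the exon that is read in frame up to and including the stop, 5′ to 3′, in lower case with the stop codon in capitals. They come from GENCODE vM21 transcripts on GRCm38. The stretches lie at chr6:49252965-49253108 (Tra2a, minus strand, exon 2), chr16:22259181-22259261 (Tra2b, minus, exon 2), chr3:158024209-158024231 (Srsf11, minus, exon 4), chr5:115328347-115328428 (Srsf9, plus, exon 2), chr7:28817335-28817393 (Hnrnpl, plus, exon 6) and chr17:80044976-80045022 (Hnrnpll, minus, exon 7).
Tra2a-202: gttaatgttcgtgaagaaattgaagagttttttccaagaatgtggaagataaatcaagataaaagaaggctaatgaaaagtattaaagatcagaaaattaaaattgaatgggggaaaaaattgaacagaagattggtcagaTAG
Tra2b-206: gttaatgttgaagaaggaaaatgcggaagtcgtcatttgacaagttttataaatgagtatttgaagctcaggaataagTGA
Srsf11-206: ttcttttccctggttcagccTGA
Srsf9-205: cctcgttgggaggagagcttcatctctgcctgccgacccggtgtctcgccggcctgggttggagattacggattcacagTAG
Hnrnpl-213: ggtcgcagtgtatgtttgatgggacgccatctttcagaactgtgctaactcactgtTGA
Hnrnpll-203: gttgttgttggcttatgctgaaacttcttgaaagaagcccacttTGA
In all 6 transcripts the stop lies upstream of further exon junctions, with between 4 and 8 exons still to come.

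Srsf9 was the member with the largest share of its counts in an NMD isoform. It had 2 tested isoforms, and Hnrnpl, with similar counts of its isoforms in C1, had 6. How far NMD shares reflect the way reads were divided among isoforms or counted more than once was not tested. Srsf9-205 took 48.9%, 48.9% and 49.1% of the gene's counts in the vehicle libraries; in TEPP-46 it took 50.5%, 52.6% and 54.3%. Every TEPP-46 library was above every vehicle library, at 52.5% ± 1.87 against 48.9% ± 0.102 (SD, n = 3). The exact two-sided permutation p was 0.1, the smallest that 3 against 3 can give, and 0.5 after adjustment over the 15 members with at least 100 NMD counts. Hnrnpll-203 held 21.5%, 20.2% and 17.1% in vehicle and 27.2%, 23.2% and 22.8% in TEPP-46, again without overlap (exact permutation p 0.1, adjusted 0.5). For Hnrnpll this went with fewer counts of its coding forms in TEPP-46, and Hnrnpll-203 itself had 29, 20 and 38 counts in vehicle and 31, 22 and 26 in TEPP-46. Qk-202 held 15.3%, 15.7% and 16.7% of Qk in vehicle and 11.4%, 11.6% and 12.5% in TEPP-46, without overlap in the opposite direction (exact permutation p 0.1, adjusted 0.5).

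Of the 15 members, 10 had a higher mean NMD share in TEPP-46 and 5 a lower one, and the same split over all genes was not computed. None could pass adjustment, since the exact test with 3 against 3 gives no p under 0.1. The groups did not overlap for 2 that were higher, where 8.78% of 1207 genes measured the same way were higher without overlap. They did not overlap for 1 that was lower, against 3.81% of those genes. Tra2a-202 held 13.9% ± 0.987 of Tra2a (SD, n = 3) in vehicle and 13.1% ± 0.3 in TEPP-46. The NMD isoforms of Tra2b together held 12.3% ± 4.93 in vehicle and 12.6% ± 1.96 in TEPP-46, with 18% in C1 as the highest library. Hnrnpl-213 held 15.8% ± 0.537 and 16.1% ± 0.0459. The NMD isoforms of Srsf11 held 14.2% ± 2.31 in vehicle and 12.3% ± 2.85 in TEPP-46. Srsf11-206 had 28, 42 and 33 counts in vehicle and 16, 15 and 27 in TEPP-46, a log2 fold change of -0.90 (SE 0.321, adjusted p 0.719).

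**Figure D4:**
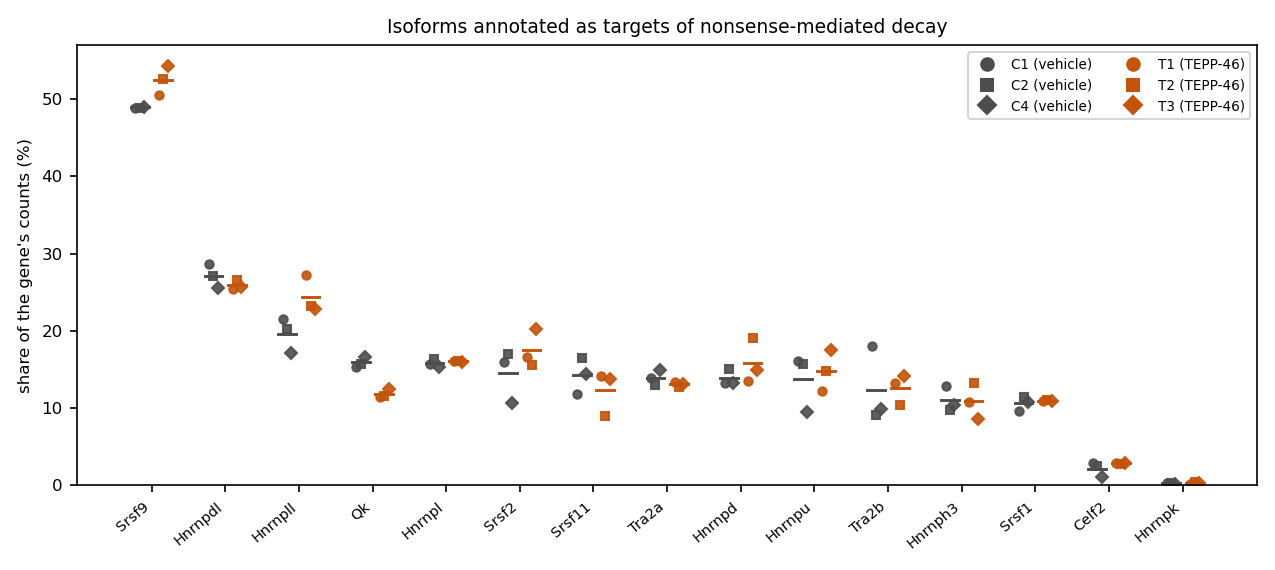
Share of each gene's isoform counts held by isoforms annotated as NMD targets, in percent on an axis from 0, for the 15 members with at least 100 such counts; points are libraries and bars are group means. Srsf9, with 2 tested isoforms, lies near 50% in all libraries, and the groups do not overlap for Srsf9, Hnrnpll and Qk. The part of read sharing among isoforms in these shares was not tested.

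Exons that these genes splice in or out of their own messages were also followed. An exon was counted where annotated isoforms with at least 100 counts included it and others with at least 100 counts skipped it, which gave 55 exons in 29 genes, with neighbouring exons of an event counted separately. The exons of Rbfox and Mbnl shown here are shared by paralogs and were picked after seeing the data. Other exons of equal length in paralogs are not shown. Among these were exons of 39 bases in Elavl2 and Elavl4 and of 40 and 43 bases in Rbfox1 and Rbfox2. For each of those the groups overlapped. Each is given 5′ to 3′ from GENCODE vM21, with the exon in capitals and 15 bases of the neighbouring exons in lower case. The Rbfox exon of 93 bases codes for part of the RNA-binding domain and lies at chr16:7292185-7292277 (Rbfox1, plus strand), chr15:77105577-77105669 (Rbfox2, minus) and chr11:118502842-118502934 (Rbfox3, minus).
Rbfox1-201: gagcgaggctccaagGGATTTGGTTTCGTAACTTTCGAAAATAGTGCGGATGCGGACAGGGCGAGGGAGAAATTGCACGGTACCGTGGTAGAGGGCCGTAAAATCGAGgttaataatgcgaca
Rbfox2-203: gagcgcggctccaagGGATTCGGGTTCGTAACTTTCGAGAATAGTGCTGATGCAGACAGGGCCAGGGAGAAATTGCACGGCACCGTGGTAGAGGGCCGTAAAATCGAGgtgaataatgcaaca
Rbfox3-205: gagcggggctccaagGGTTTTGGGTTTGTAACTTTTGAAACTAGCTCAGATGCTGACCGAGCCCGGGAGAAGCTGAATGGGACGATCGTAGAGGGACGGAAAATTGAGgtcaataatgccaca
The Rbfox2 and Rbfox3 exons match at 69 of 93 bases, and the Rbfox1 and Rbfox2 exons at 86 of 93. Skipping of this exon is known to give a protein that binds RNA poorly. In Rbfox3, 94.3%, 95.7% and 95.7% of counts included it in vehicle, and 93%, 93.7% and 92.6% did in TEPP-46. In Rbfox2 it was included in 94.9%, 95.5% and 96.6% in vehicle and in 94.3%, 93.5% and 94.6% in TEPP-46. For both genes every TEPP-46 library was below every vehicle library, by 2.16 percentage points between the means for Rbfox3 and 1.53 for Rbfox2 (exact permutation p 0.1 for each). Over all 6 libraries, the counts that skipped the exon were 284 in Rbfox3, all from 1 annotated isoform, and 144 in Rbfox2, from 2. In Rbfox3 that isoform is the short-ended one whose share was given above as higher in TEPP-46. The lower inclusion in Rbfox3 is therefore not a separate observation. It cannot be told apart from a difference tied to the other features of that isoform. New isoforms did not enter these inclusion shares. How far any exon share given here reflects reads divided among isoforms or counted more than once was not tested. For Rbfox1 the minimum of 100 counts on each side was not met.

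Mbnl1 and Mbnl2 share an exon of 54 bases, which is known to direct the protein to the nucleus, and an exon of 36 bases near the end of the coding sequence. The 54-base exons lie at chr3:60614683-60614736 (Mbnl1, plus strand) and chr14:120395712-120395765 (Mbnl2, plus), and the 36-base exons at chr3:60621423-60621458 (Mbnl1) and chr14:120403336-120403371 (Mbnl2).
Mbnl1-218: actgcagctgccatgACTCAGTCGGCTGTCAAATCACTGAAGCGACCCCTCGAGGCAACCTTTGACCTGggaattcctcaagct
Mbnl2-201: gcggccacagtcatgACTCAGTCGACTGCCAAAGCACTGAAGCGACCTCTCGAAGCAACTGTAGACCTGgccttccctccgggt
Mbnl1-201: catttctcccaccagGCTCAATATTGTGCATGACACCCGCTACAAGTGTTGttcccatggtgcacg
Mbnl2-202: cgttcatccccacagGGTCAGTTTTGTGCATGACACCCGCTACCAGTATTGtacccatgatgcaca
The 54-base exons match at 46 of 54 bases and the 36-base exons at 31 of 36. The 36-base exon of Mbnl2 was included in 35.4%, 35.1% and 38% of counts in vehicle and in 34.4%, 35% and 34.6% in TEPP-46, without overlap (exact permutation p 0.1). C2, at 35.05%, lay next to T2, at 35%, and C4 was the highest library. That of Mbnl1 was included in 46.7%, 48.4% and 45.3% in vehicle and in 44.1%, 43.5% and 45.6% in TEPP-46 (exact permutation p 0.2). The 54-base exon of Mbnl2 was included in 76.4% ± 1.78 (SD, n = 3) in vehicle and in 73.6% ± 1.8 in TEPP-46, and that of Mbnl1 in 41.7% ± 2.87 and 41.7% ± 1.4. C4 had the highest inclusion of the 54-base exon in both genes, 44.9% in Mbnl1 and 78.4% in Mbnl2.

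**Figure D5:**
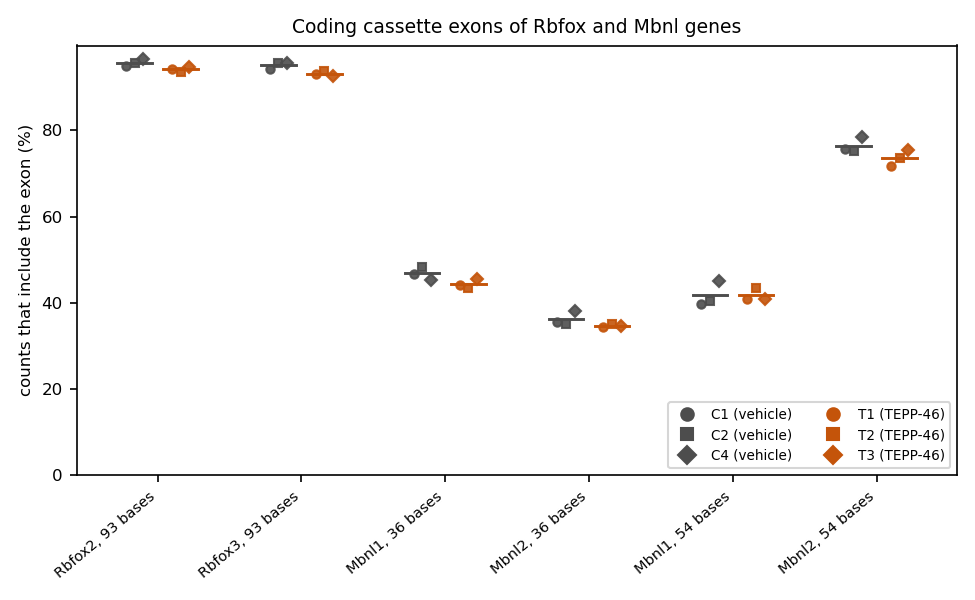
Share of counts that include each exon, among annotated isoforms that include or skip it, in percent on an axis from 0; points are libraries and bars are group means. The 93-base exons of Rbfox2 and Rbfox3 and the 36-base exon of Mbnl2 were lower in every TEPP-46 library than in any vehicle library. For Mbnl2 the nearest libraries were C2, at 35.05%, and T2, at 35%. The part of read sharing among isoforms in these shares was not tested.

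Over all 55 exons, 6 had a higher inclusion in every TEPP-46 library than in any vehicle library, where 4.16% of 4805 exons measured the same way in all genes did. In the lower direction there were 5, where 6.81% of all such exons did. As shares of the 55 these are 10.9% and 9.09%, and they include pairs of exons from the same isoforms in Srsf9 and overlapping exons in Hnrnpr, so the exons are not independent. The differences in these 11 exons lay between -2.32 and 4.79 percentage points, and the largest was the poison exon of Hnrnpll. With 3 libraries in each group, none of these exact tests can give a p under 0.1.

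The machinery around these factors was described from lists of other splicing genes. Of 35 core spliceosome genes, none passed adjustment, and 2 had an unadjusted p under 0.05, both higher, where 1.88% of all genes were. Prpf8, the scaffold at the heart of the spliceosome, had 27.2, 29.8 and 26.1 CPM in vehicle and 33.9, 37.5 and 39.2 CPM in TEPP-46, a log2 fold change of 0.40 (SE 0.15, adjusted p 0.766). Prpf6, a bridge within the tri-snRNP, had a log2 fold change of 0.34, again without overlap. The unadjusted p of both rose above 0.05 when certain single libraries were left out, to 0.0895 for Prpf8 and 0.186 for Prpf6 without T3. The median log2 fold change of the 35 was 0.03, against 0.01 over all genes.

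Of the 8 listed kinases and import factors of SR proteins, 7 were tested. Clk2, a kinase that phosphorylates SR proteins, had 11.6, 12.6 and 22.1 CPM in vehicle and 6.14, 9.6 and 4.71 CPM in TEPP-46, a log2 fold change of -1.19 (adjusted p 0.609). It was -0.84 without C4. The 8 coactivators related to SR proteins, such as Srrm2 and Son, had a median of 0.09, and none had an unadjusted p under 0.05. Among 37 other splicing regulators, 1 was higher and 2 were lower at an unadjusted p under 0.05. Over all genes, 1.88% were higher and 4.05% lower at that threshold. Ptbp1, the repressor that neurons switch off, had 56.2, 76.3 and 43.3 CPM in vehicle and 85.6, 95.2 and 72.7 CPM in TEPP-46, a log2 fold change of 0.51 (adjusted p 0.805), and the groups overlapped. Without C4 the log2 fold change of Ptbp1 was 0.34 with an unadjusted p of 0.108.

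Khdrbs1, or Sam68, a signal-responsive splicing regulator, had 36, 27.5 and 59.2 CPM in vehicle and 14.9, 20.1 and 18.8 CPM in TEPP-46. The fold change on the log2 scale was -1.20 with an adjusted p of 0.391 by edgeR, and its adjusted p by DESeq2 was 0.0189. Without C4, its highest library, the log2 fold change was -0.83. Rbm17, a factor that acts at the 3′ splice site, had a log2 fold change of -0.85 (adjusted p 0.618) without overlap. Of 10 NMD genes, Upf3a was lower at an unadjusted p under 0.05, where 4.05% of all genes were. The other 9 had an unadjusted p above 0.05. Upf3a, a modulator of the pathway, had 78.1, 77.7 and 96.3 CPM in vehicle. It had 43.7, 61 and 63.9 CPM in TEPP-46, a log2 fold change of -0.59 (adjusted p 0.618).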

How the data were processed

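The 48 genes, the lists of other splicing genes and the marker lists were chosen with earlier results of these data known. The authors deposited gene and isoform tables whose count columns hold whole-number counts per library, per the file headers. DESeq 1.10.1 and GRCm38 appear in the submitters' processing notes. For the aligner, the read counter and the sharing of reads among isoforms, no name is given in the sources used here. Another 12 per-library columns of the tables were not used, nor were the authors' own test results. Column letters tie each library to its group, but their numbers differ from those in the sample titles.

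CPM is the count divided by the library's total. Genes and isoforms were tested across whole tables with edgeR 4.0.16 in R 4.3.3 (filterByExpr, TMM, robust quasi-likelihood F-test, 3 against 3, Benjamini-Hochberg adjustment), and isoform usage with diffSpliceDGE (Simes). DESeq2 1.42.0, other scaling, no filter and leaving out each library were alternatives. The scripts were tested on simulated data. Shares were tested with exact two-sided permutation tests, which with 3 against 3 cannot go below a p of 0.1. Isoform classes, exon positions and sequences came from GENCODE vM21 (GRCm38). The exons spliced in or out were examined after seeing the data. The genes described in full were those with an unadjusted p under 0.05 and the 2 with the highest CPM in each family; Srsf1, Srsf2, Srsf6, Hnrnpll, Hnrnph2, Rbfox2, Elavl1 and Elavl3 were added after their values were seen. Isoforms were named where they were the most abundant of such a gene or had an unadjusted p under 0.05 with a mean of at least 20 counts in a group.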

Additional observations from a re-analysis of the deposited data

How the results depend on the processing

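No paired analysis was possible because the numbers of the count columns differ from those of the sample titles. No gene or isoform of the set was called by edgeR under RLE size factors, without the filter on low counts or, for genes, with robust fitting off. With DESeq2, 88 genes and 160 isoforms of the whole tables were called, none of them members. Leaving out single libraries gave 0 to 43 called genes and 0 to 178 called isoforms, both highest without C2. It gave 0 to 1 called isoforms of the set, where Rbfox3-204 was called without C2, and 0 to 1 genes called for isoform usage. The 1 gene called for usage was lost when a total of 10 counts replaced the filter, leaving 0. These runs leave 2 libraries in a group, whose spread is taken from the fit over all.

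Small log2 fold changes changed sign. Rbfox1 was -0.012 with RLE size factors, -0.013 with DESeq2 and -0.017 without the filter. With single libraries left out, Rbfox1 lay between -0.088 and 0.10, Elavl4 between -0.26 and 0.057, Celf1 between -0.0092 and 0.14, Hnrnpk between -0.0056 and 0.071, Nova2 between -0.24 and 0.045, and Srsf1 between -0.27 and 0.24; the cause was not tested. Another 346 values for 36 genes and 179 for 20 isoforms kept their sign and their side of the threshold, and Khdrbs1 passed it with DESeq2. Without new isoforms in the denominator, the difference in NMD share of Srsf2 was 9.37 percentage points in place of 2.99. Low counts limit the minor isoforms.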
